A study of Mus musculus with 9 samples.

Results

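The genes described here are the clustered replication-dependent histone genes of the mouse, whose symbols in the deposited table begin with Hist, a cluster digit and h. The rule found 71 genes (70 symbols, with Hist2h2bb listed under 2 gene IDs) among the 34745 genes of the table. The tissue was spinal cord of mice whose cord had been cut through completely at T9, with 3 libraries each at day 0, day 3 and day 21. The titles carry the day for the day 3 (Y-S3d) and day 21 (Y-S21d) libraries. The remaining libraries (Y-N) were taken as day 0, since the design text names 0, 3 and 21 days. The sources used here name no genotype, strain, age, sex, agent or length of cord, and do not say whether the day 0 animals had surgery. Nothing in the labels ties the 3 libraries of a group to separate animals, so the p-values cover only how much these samples vary, which can be technical variation. The libraries were made from RNA selected by its poly-A tail.

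Replication-dependent histone genes supply the H1, H2A, H2B, H3 and H4 proteins that package newly copied DNA. Most of their mRNA is made in S phase and is unusual in ending without a poly-A tail. Its 3′ end is cut just after a short stem-loop that is bound by the stem-loop binding protein SLBP, with the U7 small nuclear ribonucleoprotein guiding the cut. Some of these genes also make polyadenylated mRNA from a signal further downstream, a form known from differentiated and non-dividing cells. A poly-A selected library is meant to record that polyadenylated form, so none of the values below are read as a measure of the usual stem-loop-ended mRNA. How much RNA without a tail was carried over was not tested.

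The stem-loop was searched in the GENCODE M21 transcripts (mouse build GRCm38) as GGCNCTTNTNAGNGCC. Of the 71 genes, 69 had an M21 entry, and 65 of those were protein coding, 3 were pseudogenes and 1 was a lincRNA. The stem-loop was found in a transcript of 42 of the 65 protein-coding genes. Among all 58797 protein-coding transcripts of M21, 0.0952% held it, and 42 of the 51 genes with such a transcript were histone genes of the set. The examples below are written as DNA, 5′ to 3′, with the stem-loop in capitals and 5 flanking bases on each side. They show the form shared by 24 genes of classes H1, H2A, H2B and H3, the pair of common H4 forms (7 genes and 2 genes), the form with A in the loop shared by 6 genes, and forms found in 1 gene each.
Hist1h1c: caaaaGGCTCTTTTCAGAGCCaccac
Hist3h2a: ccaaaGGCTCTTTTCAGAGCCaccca
Hist2h2aa1: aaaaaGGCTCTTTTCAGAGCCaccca
Hist2h3c2: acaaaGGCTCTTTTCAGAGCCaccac
Hist1h4h: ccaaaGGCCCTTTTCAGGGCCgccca
Hist1h4i: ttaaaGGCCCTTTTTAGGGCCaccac
Hist1h3c: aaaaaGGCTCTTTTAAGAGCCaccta
Hist2h2ac: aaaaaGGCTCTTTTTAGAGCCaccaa
Hist1h4a: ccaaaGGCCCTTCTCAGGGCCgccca

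The H4 genes with a stem-loop carried a stem that begins GGCCC, while the printed genes of the other classes carried one that begins GGCTC. The annotated transcripts differed more in where they ended than in the stem-loop. In 21 genes the transcript stopped within 100 bases after the stem-loop, in another 21 it ran on for more than 100 bases, and in 23 no stem-loop was found. Several of the 23 had short annotated transcripts, such as Hist1h4k (312 bases), Hist1h2bn (381), Hist1h2ai (393) and Hist1h3h (411). Others were long, such as Hist2h2be (2620). Whether the short ones were annotated without the part that holds a stem-loop or poly-A signal was not tested. The poly-A signals AATAAA and ATTAAA were searched in the last 40 bases, on the transcribed strand. They were present in 15 of the 65 genes, each taken by a single transcript, the longest with the stem-loop or else the longest. Of all protein-coding transcripts, counted without such a choice, 48.7% held a signal. The transcript ends of 5 genes that rank among the better measured of the set are printed from the signal, in capitals. Those of Hist1h1c, Hist2h2be and Hist3h2ba run to the last annotated base, while those of Hist3h2a and Hist1h4h stop a few bases before it.
Hist1h1c: AATAAAaagcgtttagttttcattca
Hist3h2a: AATAAAataagagtacgtgtataacataag
Hist2h2be: AATAAAgttaccgattagtttc
Hist3h2ba: AATAAAtttggttcaattttggccaca
Hist1h4h: ATTAAAagagcgaacatgtgttttacgttt

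The Hist1h1c transcript ended 840 bases after its stem-loop and that of Hist3h2a 1643 bases after it. Hist2h2be had no stem-loop in its 2620-base transcript. Hist1h4h was the only gene ending within 100 bases of the stem-loop (46 bases) that also had a signal.

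Levels in these poly-A selected libraries were low for most of the set. FPKM, the authors' fragment count scaled to gene length and library total, allows levels to be set side by side between genes. The median of the mean FPKM over the 9 libraries was 0.199 for the 21 genes whose transcript stopped near the stem-loop, 0.710 for the 21 whose transcript ran on and 0.0930 for the 23 without a stem-loop. In the same order 5, 9 and 2 genes passed the expression filter of the test. Of the 21 that ran on, 11 had a poly-A signal at the end, against 1 of the 21 that stopped near the stem-loop and 3 of the 23 without one. Genes with the signal had a median of 0.670 FPKM (15 genes, 9 past the filter) and genes without it 0.187 FPKM (50 genes, 7 past the filter). Each category still held a gene at 30 FPKM or more, since the highest means were 35.1 (Hist2h2aa1), 30.1 (Hist1h1c) and 68.6 (Hist1h2bc). These are descriptions over genes that share exons, sequence and annotation quality, not replicates. The categories come from M21, while the deposited FPKM rests on the authors' own gene models. For some genes that ran on, the FPKM implies a shorter length than the M21 transcript: 748 against 1930 bases for Hist1h1e and 476 against 2482 for Hist1h2ac. The same held for Hist1h2bc among the genes without a stem-loop, with 736 against 1156 bases. For others the lengths were the same, as for Hist1h1c (1560) and Hist3h2a (2146). The levels thus need not cover the annotated tail of each gene.

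**Figure D1:**
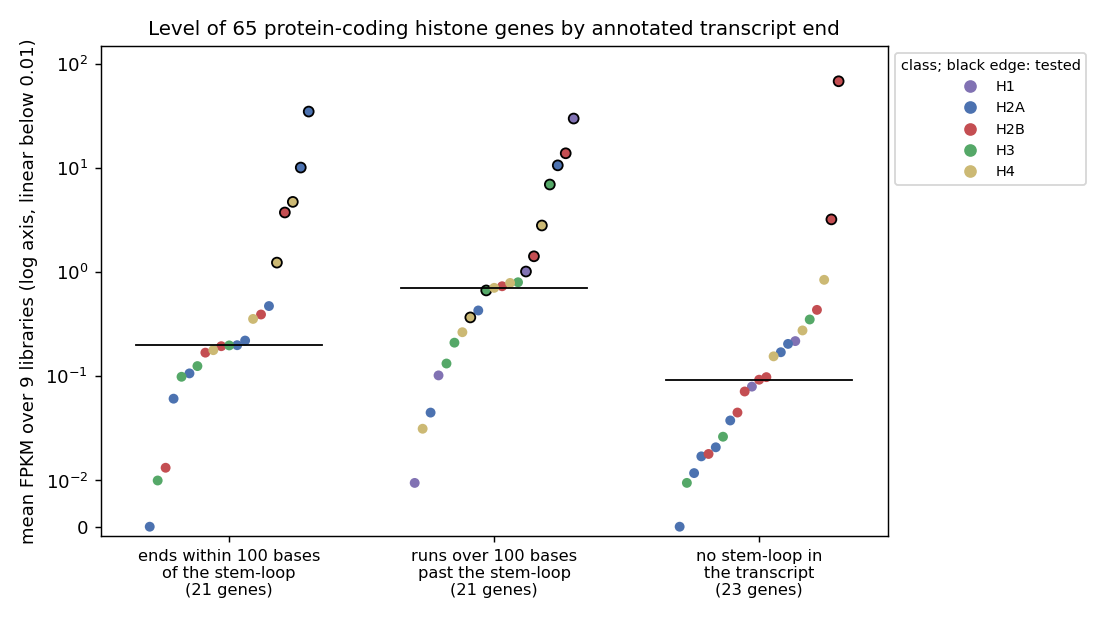
Mean FPKM over 9 libraries (log axis, linear below 0.01) of the 65 protein-coding histone genes, grouped by the annotated transcript end; colours give the histone class, a black edge marks genes past the expression filter and lines are medians. The medians are 0.199, 0.710 and 0.0930 FPKM from left to right, and each category spans several orders of magnitude.

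The 71 genes held 29603 counts over the 9 libraries, or 0.0147 to 0.0310% of the counts of a library. Hist1h2bc, Hist1h1c and Hist3h2a were the 3 genes with most counts and took 60.8% of them, and 10 genes took 92.4%. By class, 2 of 6 H1 genes, 3 of 20 H2A, 6 of 20 H2B, 2 of 12 H3 and 4 of 13 H4 genes passed the filter, 17 in all. By cluster, 9 of 56 Hist1 genes (chromosome 13), 6 of 11 Hist2 genes (chromosome 3), 2 of 3 Hist3 genes (chromosome 11) and 0 of 1 Hist4 gene (chromosome 6) passed.

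Of the 54 genes that did not pass, 49 had a mean below 1 FPKM in every group and none had more than 14 counts in any library. In the whole set 50 genes stayed under 10 counts in every library, 26 had 10 counts or fewer over all 9 libraries, and Hist1h2aa and Hist2h2ac had none. A count of 0 over 9 libraries allows up to 0.0199 CPM (counts scaled to the library total), by counting error only. Summed over the 54 genes there were 125, 65 and 73 counts in the day 0 libraries, 117, 109 and 142 at day 3 and 108, 71 and 120 at day 21. Scaled by TMM, the trimmed mean of M-values, this was 4.67 ± 0.51 CPM at day 0, 7.66 ± 1.76 at day 3 and 6.44 ± 1.78 at day 21 (SD, n = 3). The day 3 libraries lay above those of day 0 and the day 21 libraries overlapped both. A list of 25 RNAs that carry no poly-A tail was set beside these. Of its symbols 9 (10 genes) were in the table, 7 of the genes were at 0 in every library, and none passed the filter. Its summed level ran from 0.178 to 1.09 FPKM at day 0, 0.307 to 1.84 at day 3 and 0.165 to 2.16 at day 21. Most of the list was not in the table, so it cannot gauge how much untailed histone mRNA would be recorded.

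H2A and H2B genes often lie head to head and share the stretch between their start sites. The set held 12 such pairs, with 235 to 305 bases between the starts in the table, and in no pair did both genes pass the filter. In 9 pairs neither did. In the remaining 3 pairs the H2B gene was the better measured: Hist1h2bc had 7409 counts over the 9 libraries and Hist1h2ac 30, Hist2h2be had 1284 and Hist2h2ac 0, and Hist1h2bf had 275 and Hist1h2ad 14. The shared promoters of the first pairs are printed because their genes differ so much in level. They are the RefSeq promoter windows of GRCm38.p6 for the H2A gene (250 bases before to 50 after its start, minus strand), at chr13:23683910-23684209 for Hist1h2ac and chr3:96220831-96221130 for Hist2h2ac, and each also covers the start of the H2B gene on the opposite strand. Capitals mark 3 motifs searched on both strands. The TATA box was searched as TATAAA. The CCAAT box was searched as CCAAT, which reads ATTGG on the other strand. The octamer bound by POU factors was searched as ATTTGCAT and reads ATGCAAAT on the other strand.
Hist1h2ac promoter: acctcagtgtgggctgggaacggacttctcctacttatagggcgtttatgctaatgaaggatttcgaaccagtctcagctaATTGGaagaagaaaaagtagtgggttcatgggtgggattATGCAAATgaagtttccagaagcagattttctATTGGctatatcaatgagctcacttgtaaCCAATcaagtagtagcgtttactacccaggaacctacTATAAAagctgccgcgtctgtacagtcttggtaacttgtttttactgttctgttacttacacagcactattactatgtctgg
Hist2h2ac promoter: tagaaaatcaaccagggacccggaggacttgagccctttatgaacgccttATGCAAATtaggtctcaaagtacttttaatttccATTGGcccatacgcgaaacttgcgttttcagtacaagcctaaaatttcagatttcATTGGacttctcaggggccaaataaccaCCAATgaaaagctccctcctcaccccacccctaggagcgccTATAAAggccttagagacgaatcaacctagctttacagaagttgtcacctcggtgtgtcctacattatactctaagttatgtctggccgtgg

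Both windows held all 3 motifs. A RefSeq promoter within 100 bases of the start in the table was matched to 59 of the 71 genes. TATAAA was in 59.3% of these promoters, against 13.6% of all 32841 RefSeq promoters of the same length. CCAAT was in 84.7%, against 37.4% of all. Every matched promoter of classes H1, H2A, H2B and H3 held CCAAT, and 3 of 12 of class H4 did. The octamer was in 20.3% of the histone promoters, against 1.74% of all, and lay only in promoters of H2A genes (7 of 17) and H2B genes (5 of 14). Of the 13 matched promoters of genes that passed the filter 6 held TATAAA, against 29 of the 46 of genes that did not.

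The 9 libraries held 14299679 to 24022923 counts, with the deepest at day 0 replicate 1. Within a group, log CPM values correlated at 0.985 to 0.989 at day 0, 0.987 to 0.988 at day 3 and 0.935 to 0.987 at day 21, where replicate 2 stood apart. The labelled tissue was checked by markers: 10 neuron markers summed to 2588 to 2603 FPKM at day 0, 1253 to 1267 at day 3 and 1660 to 1799 at day 21, and 8 oligodendrocyte markers to 2254 to 2450, 2124 to 2144 and 2102 to 2273. The 8 astrocyte markers summed to 918 to 929, 2421 to 2480 and 2064 to 2292 FPKM, the 8 fibroblast markers to 45.8 to 48.1, 631 to 634 and 304 to 364, and microglia and macrophage markers to 53.8 to 58.7, 740 to 743 and 541 to 761. Every neuron, oligodendrocyte, astrocyte and fibroblast marker had a count in every library. The 8 skeletal muscle markers reached 112 to 195 FPKM at day 21, against 14.8 to 19.0 at day 0 and 7.78 to 8.06 at day 3. In bulk tissue, fewer cells of a type and less RNA per cell cannot be told apart.

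Many of the genes are near-copies of each other, which limits what a count for a single gene means. Of the 71 genes, 64 shared at least one 50-base stretch of transcript with another gene of the set, including 15 of the 17 that passed the filter, and 34 shared over 50% of such stretches. The sources used here do not say how reads that fit several copies were counted, or whether strand was used. Exons of 23 genes were overlapped by another gene over more than 20% of their bases. The share of such stretches was 100% for Hist2h2aa2, 89.2% for Hist2h2aa1, 65.5% for Hist1h2bf and 63.5% for Hist2h3c2. It was 45.8% for Hist1h4h, 29.4% for Hist1h2bc, 8.54% for Hist1h1c and 2.00% for Hist3h2a. Other genes overlapped 100% of the exon bases of Hist2h2aa2. Further limits of some single genes are given with their values below.

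Comparing day 3 with day 0 asked which histone genes differed early after the transection. At day 3 the H3 gene Hist2h3c2 of the Hist2 cluster rose, and 2 genes fell, Hist2h2be (H2B) and Hist3h2a (H2A). Hist2h3c1, another H3 gene of that cluster, was also called higher. It passed the filter only through libraries after the transection, so its calls are listed but not taken as support for a rise. Of the 17 genes tested, 2 were thus called higher, where 24.8% of all 16494 genes tested were. Another 2 were called lower, where 19.5% of all were. Calls are at an adjusted p under 0.05 from edgeR's quasi-likelihood test with Benjamini-Hochberg adjustment over all genes tested. At day 21, 2 genes were called higher than at day 0, Hist1h2bc (H2B) and, with the same limit, Hist2h3c1, where 17.9% of all genes were called higher. No histone gene was called lower at day 21 against day 0 by edgeR or DESeq2 (11.3% of all genes by edgeR), and 1 was lower at an unadjusted p under 0.05 by edgeR. Both comparisons use the same day 0 libraries. Between day 21 and day 3 no histone gene was called in either direction by edgeR or DESeq2, where edgeR called 11.7% of all genes higher and 16.1% lower at day 21. At an unadjusted p under 0.05 edgeR gave 2 genes higher at day 21, Hist1h2be and Hist2h2be, and limma on log2 FPKM called 1 higher, Hist2h2be.

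**Figure D2:**
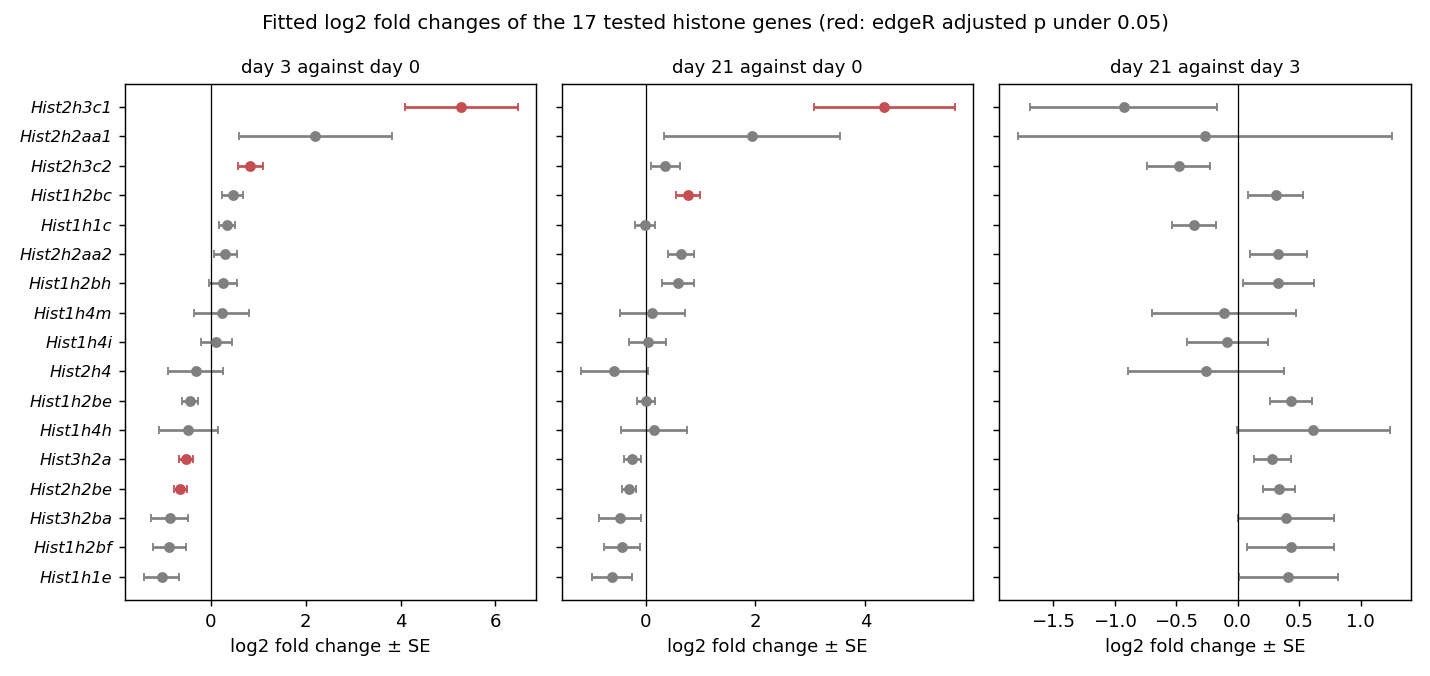
Log2 fold changes (points) with standard errors (bars) of the 17 tested histone genes in the 3 comparisons, from edgeR's quasi-likelihood fit of all 9 libraries; red marks an adjusted p under 0.05. Each panel has its own horizontal axis. At day 3 Hist2h3c1 and Hist2h3c2 were called higher and Hist3h2a and Hist2h2be lower; at day 21 against day 0 Hist2h3c1 and Hist1h2bc were called higher.

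The linker histone H1 binds the DNA between nucleosomes, and Hist1h1c was its best measured gene (chr13:23738808-23740367, plus strand). Hist1h1c stood at 30.9, 24.3 and 24.3 FPKM at day 0, at 35.1, 33.5 and 36.1 at day 3 and at 22.5, 38.0 and 25.9 at day 21. The day 3 libraries all lay above those of day 0, while the day 21 libraries overlapped both groups, replicate 3 falling in the day 0 range and replicate 2 above all day 3 libraries. The log2 fold change was 0.35 ± 0.18 (SE) at day 3 and -0.01 ± 0.18 at day 21, with edgeR adjusted p of 0.145 and 0.976. Day 21 against day 3 gave -0.36 ± 0.18 (0.173), and without day 21 replicate 2 Hist1h1c was called lower at day 21 (-0.59 ± 0.11, 0.00154; 0.00154 to 0.418 over the 17 alternatives). Without day 21 replicate 2 the spread shared by all groups was smaller and the day 3 difference from day 0 passed the test (0.34 ± 0.09, edgeR adjusted p = 0.00993; 0.00993 to 0.336 over the alternatives). It also passed in the fit of only day 0 and day 3 (0.0108). Hist1h1e, the other H1 gene tested, had 33, 11 and 18 counts at day 0, 9, 13 and 4 at day 3 and 13, 10 and 10 at day 21. Its day 3 difference of -1.03 ± 0.38 had an edgeR adjusted p of 0.0511. It passed with median-of-ratios scaling, with limma at both pseudocounts and without day 0 replicate 2, day 3 replicate 2 or day 21 replicate 2, with adjusted p of 0.0399 to 0.177 over the alternatives. Its exons are overlapped over 25.7% by Hist1h2be on the same strand.

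H2A genes encode a core histone that pairs with H2B in the nucleosome. Hist3h2a (ENSMUSG00000078851, chr11:58954685-58956830, plus strand) lies in the small Hist3 cluster. Its level was 13.2, 11.1 and 11.9 FPKM at day 0, 8.71, 8.86 and 8.62 at day 3 and 10.3, 14.1 and 9.22 at day 21. Every day 3 library lay below every other library. Hist3h2a fell by 0.52 ± 0.15 on the log2 scale at day 3, with an edgeR adjusted p of 0.0194. Leaving out day 0 replicate 1, day 0 replicate 3 or any 1 day 3 library ended the call (edgeR adjusted p up to 0.0691). At day 21 the difference from day 0 was -0.24 ± 0.15 (edgeR adjusted p = 0.266), and without day 21 replicate 2 it was -0.42 ± 0.09 (0.00481). Other genes overlap 33.0% of its exon bases, among them Trim17 on the same strand, which had 161, 56 and 62 counts at day 0, 31, 21 and 23 at day 3 and 64, 54 and 63 at day 21.

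Hist2h2aa1 and Hist2h2aa2 are twin H2A genes, and their transcripts were identical over all 528 aligned bases. Hist2h2aa1 stood at 31.1, 0 and 0 FPKM at day 0, at 49.5, 46.9 and 54.9 at day 3 and at 47.7, 85.8 and 0 at day 21. Its counts were either 0 (day 0 replicates 2 and 3, day 21 replicate 3) or between 438 and 731, with nothing between. The fitted log2 fold change of 2.21 ± 1.61 at day 3 did not pass (edgeR adjusted p = 0.3), except without day 0 replicate 1 (0.0352; 0.0352 to 0.552 over the alternatives), which leaves a day 0 group listed at 0. Among the 14576 genes with at least 50 counts in a library, 19 had a 0 beside at least 50 counts within a group, and Hist2h2aa1 was the only histone gene of the set among them.

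Hist2h2aa2 was present in every library, at 7.49, 7.21 and 8.17 FPKM at day 0, 10.6, 8.87 and 10.0 at day 3 and 9.02, 18.2 and 11.9 at day 21. Counts of the pair added up to 533, 60 and 76 at day 0, 557, 577 and 559 at day 3 and 515, 871 and 90 at day 21, so the sum moved with Hist2h2aa1. All later libraries of Hist2h2aa2 lay above day 0, by 0.31 ± 0.24 at day 3 and 0.64 ± 0.23 at day 21 on the log2 scale (edgeR adjusted p = 0.317 and 0.0695). The day 21 difference passed with limma at both pseudocounts and without day 21 replicate 1 (0.0215 to 0.169 over the alternatives), and without day 21 replicate 2 it was 0.34 ± 0.17. Gm20634, which overlaps Hist2h2aa1 on the same strand, had a count in every library (159, 90 and 81 at day 0, 83, 93 and 83 at day 3, 92, 70 and 68 at day 21). What set the zeros of Hist2h2aa1 was not tested.

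Of the H2B genes, Hist1h2bc (ENSMUSG00000018102, chr13:23684199-23692488, plus strand) was the most abundant gene of the whole set. Its M21 transcript has 2 exons, 1156 bases and no stem-loop, while its deposited FPKM implies a length of 736 bases. Hist1h2bc stood at 48.0, 49.3 and 46.4 FPKM at day 0, at 73.4, 65.02 and 66.7 at day 3 and at 69.5, 131 and 68.2 at day 21. The day 3 and day 21 libraries all lay above those of day 0, and day 21 replicate 2 was far above the rest. The log2 fold change against day 0 was 0.46 ± 0.22 at day 3 (edgeR adjusted p = 0.124) and 0.77 ± 0.22 at day 21 (edgeR adjusted p = 0.0298). The day 21 call was lost in the fit of only day 0 and day 21 (0.0825), without any 1 day 0 library (up to 0.0909) and without day 3 replicate 3 (0.0504). The day 3 difference kept its size without day 21 replicate 2 and passed there (0.46 ± 0.07, edgeR adjusted p = 0.000313; 0.000313 to 0.276 over the alternatives), as it did in the fit of only day 0 and day 3 (0.000717).

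Hist2h2be (ENSMUSG00000068854, chr3:96221119-96223738, plus strand) encodes an H2B known from olfactory neurons as a variant made outside S phase. Its level was 3.73, 4.09 and 3.57 FPKM at day 0, 2.44, 2.36 and 2.79 at day 3 and 3.34, 3.23 and 3.50 at day 21. The 3 groups did not overlap, with day 0 highest and day 3 lowest. Hist2h2be fell by 0.64 ± 0.13 on the log2 scale at day 3 (edgeR adjusted p = 0.00348), and this call held in all 17 alternatives. It was 0.30 ± 0.13 below day 0 at day 21, which did not pass (edgeR adjusted p = 0.112), and 0.34 ± 0.13 above day 3 (0.0897; it passed in 3 alternatives, 2 with limma and 1 without day 21 replicate 2). None of its 50-base stretches occurred in another gene of the set and no gene overlapped its exons. Over the same days the summed neuron markers, given above, were also highest at day 0 and lowest at day 3, and their part in the falls of Hist2h2be and Hist3h2a was not tested.

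Hist3h2ba, the H2B gene of the Hist3 cluster, lies next to Hist3h2a (chr11:58948920-58949533, plus strand). It stood at 27.3, 12.3 and 13.6 FPKM at day 0, at 9.92, 9.26 and 11.1 at day 3 and at 10.6, 22.7 and 8.66 at day 21. The day 3 libraries all lay below day 0, and 2 libraries stood high, day 0 replicate 1 and day 21 replicate 2. The day 3 difference was -0.86 ± 0.38 on the log2 scale (edgeR adjusted p = 0.0997). It passed without day 21 replicate 2 (-0.87 ± 0.28, 0.0253; 0.0253 to 0.398 over the alternatives) and in the fit of only day 0 and day 3 (0.0383). Without that library the day 21 difference from day 0 also passed (-0.99 ± 0.32, 0.0349; 0.0349 to 0.983 over the alternatives), and with it the difference was -0.47 ± 0.38.

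Hist1h4h, an H4 gene, was high in the same pair of libraries, with 8.80, 2.15 and 3.36 FPKM at day 0, 2.63, 5.07 and 3.12 at day 3 and 4.56, 10.8 and 2.37 at day 21. The groups overlapped in every comparison. The 8 erythroid markers were highest within their group in those libraries too, with sums of 33.8, 15.6 and 17.3 FPKM at day 0, 37.2, 34.0 and 34.98 at day 3 and 34.5, 96.6 and 33.4 at day 21. The 8 neutrophil markers summed to 15.1, 9.72 and 11.5 FPKM at day 0, 47.6, 46.2 and 42.0 at day 3 and 55.5, 104 and 47.5 at day 21. This was not particular to blood cell markers. The oligodendrocyte, microglia and macrophage, and skeletal muscle sums were also highest within their groups in those libraries. The neuron, astrocyte, fibroblast and lymphocyte sums were highest in day 21 replicate 2 but not in day 0 replicate 1. All 8 erythroid markers and 7 of the 8 neutrophil markers had a count in every library. Their part in the levels of Hist3h2ba and Hist1h4h was not tested.

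The other H2B genes changed less surely. Hist1h2bf stood at 7.58, 2.89 and 3.69 FPKM at day 0, at 2.70, 2.54 and 2.91 at day 3 and at 3.72, 3.58 and 4.25 at day 21, with day 0 replicate 1 high. Its day 3 difference was -0.87 ± 0.34 (edgeR adjusted p = 0.0651), and it passed without day 0 replicate 2 (0.0255) or day 21 replicate 2 (0.0451; 0.0255 to 0.272 over the alternatives). Hist1h2bh, which has no M21 entry, stood at 2.36, 3.76 and 4.68 FPKM at day 0, at 4.32, 4.17 and 4.84 at day 3 and at 6.05, 7.09 and 4.51 at day 21. Its groups overlapped in every comparison, and its differences from day 0 were 0.26 ± 0.30 and 0.60 ± 0.29 (edgeR adjusted p = 0.508 and 0.162). Hist1h2be had 305, 154 and 151 counts at day 0, 129, 139 and 122 at day 3 and 147, 193 and 165 at day 21. Its day 3 difference was -0.43 ± 0.17 (edgeR adjusted p = 0.0692). It passed with no count filter, in the fit of only day 0 and day 3 and without day 0 replicate 3 or day 21 replicate 2 (0.0268 to 0.233 over the alternatives). Its deposited FPKM implies a length of 6940 bases, while its M21 transcript has 2506, so its FPKM values are low for its counts.

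**Figure D3:**
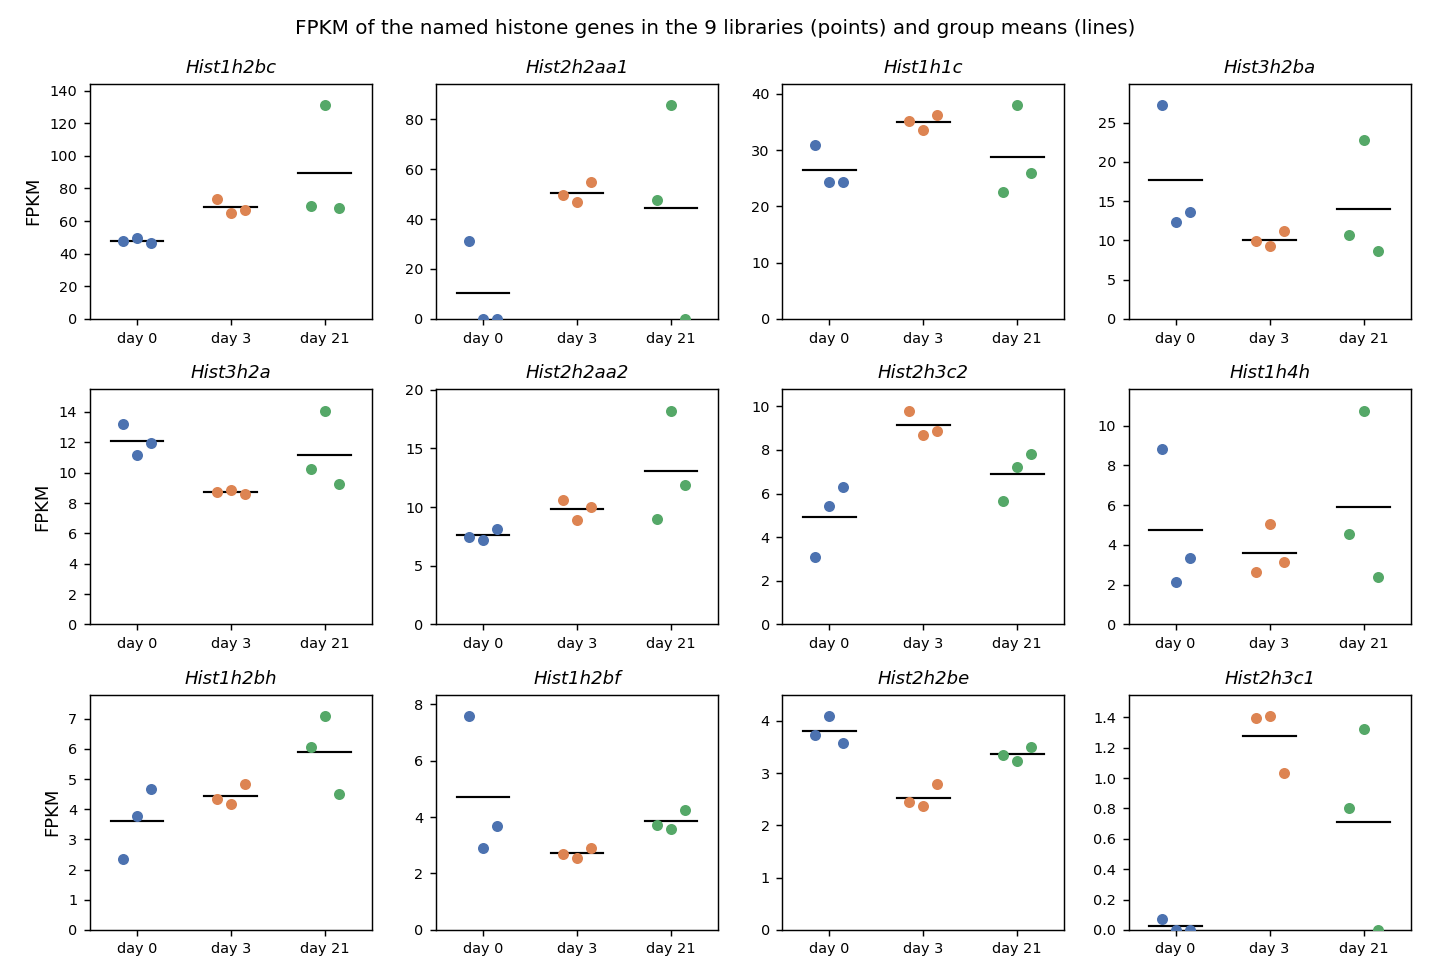
FPKM (vertical axes, each from 0) of 12 histone genes at day 0, day 3 and day 21, with 1 point per library (replicates 1 to 3 from left to right within a day) and lines at group means. Hist2h2be and Hist3h2a are lowest in the 3 day 3 libraries, Hist2h3c2 is highest there, and Hist2h2aa1 and Hist2h3c1 are at 0 in day 0 replicates 2 and 3 and day 21 replicate 3.

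H3 carries many of the histone modifications that are read on chromatin, and 2 of its genes were tested. Hist2h3c2 (ENSMUSG00000081058, chr3:96238108-96239127, minus strand) stood at 3.10, 5.41 and 6.29 FPKM at day 0, at 9.81, 8.69 and 8.87 at day 3 and at 5.66, 7.21 and 7.82 at day 21. The day 3 libraries lay above all others, and day 21 overlapped day 0. The log2 fold change was 0.84 ± 0.26 at day 3 (edgeR adjusted p = 0.0263), 0.36 ± 0.26 at day 21 against day 0 (0.341) and -0.48 ± 0.26 at day 21 against day 3 (0.203). Leaving out any 1 of the 3 day 3 libraries ended the day 3 call (0.0565 to 0.0795).

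Hist2h3c1 (ENSMUSG00000093769, chr3:96246685-96248504, plus strand) had 3, 0 and 0 counts at day 0, 41, 46 and 28 at day 3 and 23, 35 and 0 at day 21. The day 3 libraries lay above day 0 without overlap, and day 21 overlapped both groups. It passed the filter only through libraries from after the transection. Scaled by TMM library size, its 115 counts at day 3 against 3 at day 0 gave a ratio of 43.5 (95% exact binomial interval 14.5 to 214, counting error only) and the 58 counts at day 21 a ratio of 22.9 (7.46 to 114). The fitted log2 fold changes were 5.28 ± 1.19 at day 3 (edgeR adjusted p = 0.006) and 4.35 ± 1.28 at day 21 (edgeR adjusted p = 0.0315). The first call held in all 17 alternatives and the second in 7 of the 16 that tested it, with values up to 0.101. The alternatives rest on these same libraries, so they do not lift the limit set by the filter.

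The zeros of Hist2h3c1 fell in the same 3 libraries as those of Hist2h2aa1, its neighbour on chromosome 3, and Gm20634 overlaps all of its exon bases on the same strand. Its transcript matched that of Hist2h3c2 at 92.3% of 989 aligned bases. Counts of the Hist2h3c1 and Hist2h3c2 pair added up to 79, 87 and 113 at day 0, 202, 205 and 163 at day 3 and 114, 142 and 114 at day 21. The pair had more counts in each day 3 library than in any library of the other days.

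H4 genes encode the partner of H3 in the nucleosome core, and none of the 4 tested H4 genes was called in any comparison. Besides Hist1h4h they were Hist1h4i, at 1.73 to 4.07 FPKM over all libraries, Hist1h4m at 0.518 to 2.05 and Hist2h4 at 0.0422 to 0.601. Their fitted differences from day 0 ran from -0.57 ± 0.61 (Hist2h4 at day 21) to 0.23 ± 0.58 (Hist1h4m at day 3), with the groups overlapping throughout.

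Summing a class removes splits of reads between its copies, though not losses to genes outside it. The H3 sum was 4.38, 6.45 and 7.46 TMM-scaled CPM at day 0, 14.2, 12.8 and 12.3 at day 3 and 7.95, 9.83 and 9.51 at day 21. Its 3 groups did not overlap, and the day 3 mean was 2.15 times that of day 0. Without Hist2h3c1 the day 3 libraries still lay above all others and their mean was 1.77 times that of day 0. Day 21 (6.53, 7.58 and 9.51) then overlapped day 0 (4.25, 6.45 and 7.46). Of the 186, 182 and 154 H3 counts left at day 3, Hist2h3c2 held 161, 159 and 135, so this sum largely repeats that gene. H1 stood at 44.4 ± 5.17 at day 0, 55.7 ± 1.94 at day 3 and 43.7 ± 11.01 at day 21 (SD, n = 3). Its day 3 libraries all lay above those of day 0, and day 21 overlapped both. The H1 sum was mostly Hist1h1c, which held 882, 937 and 841 of the 898, 957 and 852 class counts at day 3. H2B stood at 74.8 ± 6.47, 77.1 ± 3.81 and 96.6 ± 28.7, and H4 at 6.61 ± 2.09, 6.90 ± 0.56 and 7.37 ± 1.73, with overlapping groups.

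The H2A sum depended on Hist2h2aa1. With it the class stood at 37.9 ± 11.9, 55.1 ± 2.93 and 55.03 ± 29.1 CPM at day 0, 3 and 21, and day 3 was above day 0. Without it the class stood at 31.8 ± 1.61, 25.4 ± 0.66 and 30.4 ± 6.31, and day 3 was below day 0 in every library, as Hist3h2a was. Summed as FPKM, which gives more weight to short genes, the class without Hist2h2aa1 stood at 20.9 ± 0.99 at day 0 and 21.5 ± 1.67 at day 3 and the groups overlapped, and with it the day 3 to day 0 ratio was 2.30, against 1.45 in CPM. All 71 genes together gave 170 ± 23.8, 208 ± 8.35 and 212 ± 68.2 CPM, with day 21 replicate 2 at 289. Without Hist2h2aa1 and Hist2h3c1 the sums were 164 ± 13.1, 176 ± 6.69 and 186 ± 47.1, and the day 3 to day 0 ratio of means went from 1.22 to 1.07. No test was made on these sums.

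**Figure D4:**
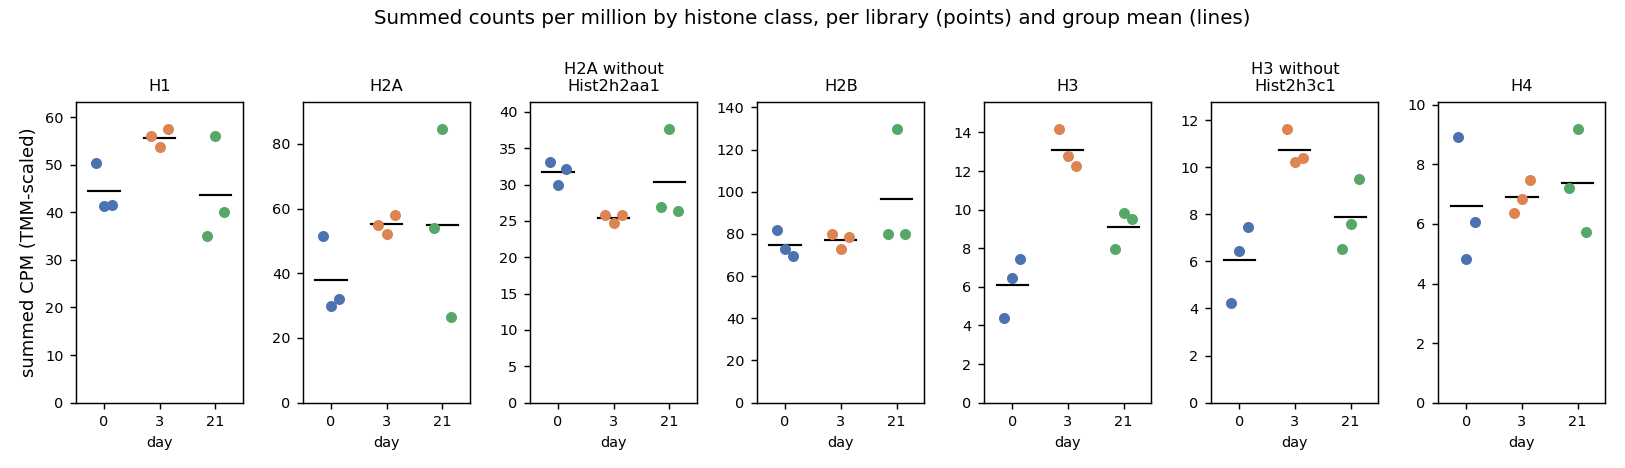
Summed TMM-scaled CPM (vertical axes, each from 0) per histone class at day 0, 3 and 21, with 1 point per library and lines at group means; H2A and H3 are also drawn without Hist2h2aa1 and Hist2h3c1. H3 is highest in the 3 day 3 libraries with and without Hist2h3c1, while H2A at day 3 goes from above day 0 (55.1 against 37.9) to below it (25.4 against 31.8) when Hist2h2aa1 is left out.

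The genes that work with histones were described by lists from textbook knowledge. S phase and mitosis genes were far higher at day 3: 36 of 40 S phase genes were called higher and 1 lower against day 0, with a median log2 fold change of 1.39, and 20 of 20 mitosis genes were higher with a median of 4.36, where the median of all genes tested was 0.00807. Of all genes tested, 24.8% were called higher at day 3 and 19.5% lower. Ccna2, the cyclin of S phase, stood at 0.113, 0.172 and 0.145 FPKM at day 0, 4.65, 4.79 and 4.99 at day 3 and 0.870, 0.789 and 0.836 at day 21. Its log2 fold change at day 3 was 5.03 ± 0.18 (edgeR adjusted p = 1.1e-07). Against day 0, 14 S phase genes were higher and 2 lower at day 21 (median 0.33), as were 19 and 0 mitosis genes (median 1.83). The shares of all genes tested were 17.9% higher and 11.3% lower. Against day 3, 34 S phase genes and all 20 mitosis genes were lower at day 21, where 16.1% of all genes tested were. The cell cycle exit list also rose at day 3, with 10 of 14 genes higher and none lower (median 1.17), among them Cdkn1a, a cyclin-dependent kinase inhibitor, at 12.2 FPKM at day 0, 71.1 at day 3 and 12.3 at day 21.

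Of the 25 chaperone and nucleosome assembly genes 11 were higher and 1 lower at day 3 (median 0.36), where 24.8% and 19.5% of all genes tested were. They included Chaf1b of the assembly factor that follows replication (3.18 ± 0.19 on the log2 scale), Asf1b, which hands H3 and H4 over (3.03 ± 0.28), and Mis18a, needed for centromeric chromatin (2.08 ± 0.19). At day 21, 9 were higher and 1 lower than at day 0 (median 0.11, with 17.9% and 11.3% of all genes), led by Atrx (1.24 ± 0.31). The genes of replication-independent histone variants, which make ordinary polyadenylated mRNA, had 4 of 12 tested genes higher and none lower at day 3 (median 0.43), a share of higher genes near the 24.8% of all genes. H2afx, whose protein marks DNA breaks when phosphorylated, stood at 21.5 FPKM at day 0, 33.0 at day 3 and 21.4 at day 21 (day 3 change 0.56 ± 0.15, edgeR adjusted p = 0.0119). H3f3b, a source of the replacement H3, went from 18.7 to 27.8 and 28.6 FPKM (0.52 ± 0.15 at day 3, 0.0183, and 0.49 ± 0.15 at day 21, 0.0357). H1f0, the linker histone of resting cells, was lower at day 21 (-0.38 ± 0.11, 0.0243). At day 21, 2 of these variant genes were higher and 1 lower than at day 0, where 17.9% and 11.3% of all genes tested were.

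The genes that form and remove the histone 3′ end moved little as a list. At day 3, 2 of 28 were higher and 3 lower (median 0.02), where 24.8% and 19.5% of all genes tested were. At day 21, 0 were higher and 3 lower than at day 0 (median -0.01), where 17.9% and 11.3% of all were. Lsm11, a protein of the U7 particle that is needed for the stem-loop cut, had the largest change. It stood at 8.59, 5.80 and 6.37 FPKM at day 0, 2.70, 2.46 and 2.06 at day 3 and 3.80, 3.82 and 3.58 at day 21, and the 3 groups did not overlap. The log2 fold change was -1.57 ± 0.16 at day 3 (edgeR adjusted p = 4.77e-05) and -1.01 ± 0.15 at day 21 (0.00146). Cstf2t, a cleavage stimulation factor subunit, fell by 0.81 ± 0.13 and 0.63 ± 0.13, and Eri1, an exonuclease that trims histone mRNA ends, rose by 0.62 ± 0.11 at day 3. Slbp, the stem-loop binding protein, stood at 1.94 to 2.22 FPKM at day 0, 1.86 to 2.22 at day 3 and 1.89 to 2.09 at day 21, with differences from day 0 of -0.13 ± 0.12 and -0.19 ± 0.12 (edgeR adjusted p = 0.443 and 0.282).

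**Figure D5:**
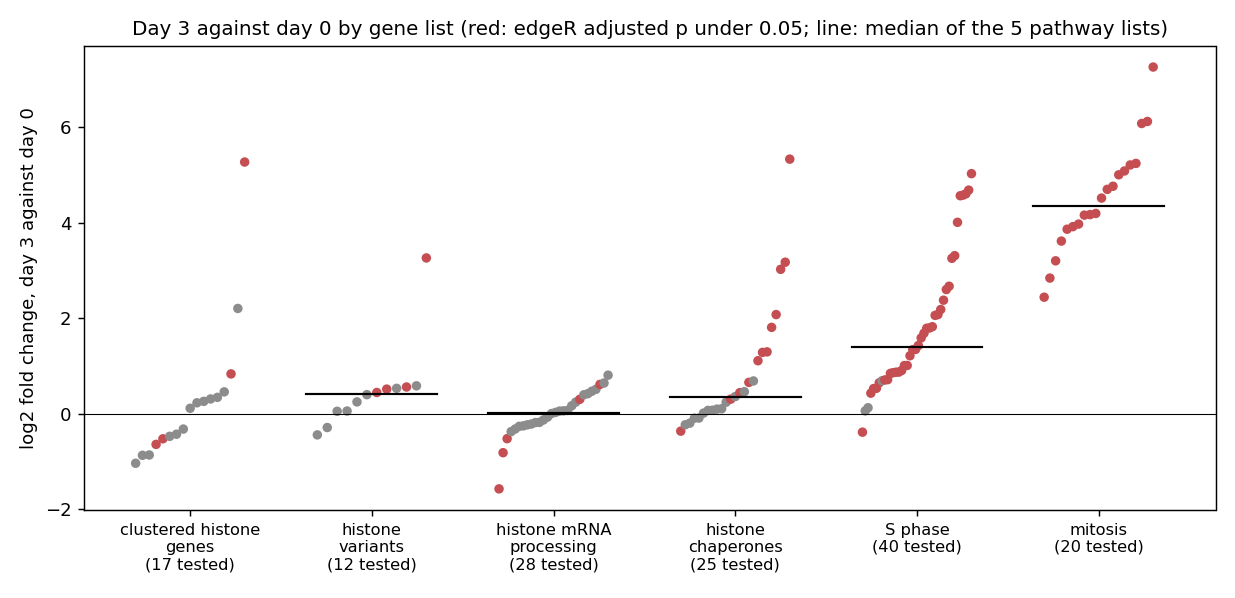
Log2 fold change at day 3 against day 0 of the tested clustered histone genes and of the tested members of 5 pathway lists, 1 point per gene; red marks an edgeR adjusted p under 0.05 and lines are medians of the pathway lists. Among the 17 histone genes 2 were called higher and 2 lower, where 24.8% and 19.5% of all genes tested were. Of 40 S phase genes 36 were called higher and 1 lower, and of 20 mitosis genes 20 were called higher.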

How the data were processed

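The table deposited by the authors holds whole-number counts and FPKM per gene for 9 libraries. Per the labels' protocols, poly-A RNA was made into paired-end TruSeq libraries. HISAT2, StringTie (both with no version) and the human build GRCh38 are named in the submitters' processing notes, yet the gene positions fit mouse GRCm38. The authors' deposited FPKM equals the count scaled by the length of the gene and the total of its own library. The sources used here do not give the aligner settings, the use of strand or the treatment of multiply mapped reads.

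Counts of all 9 libraries entered one edgeR 4.0.16 quasi-likelihood fit (R 4.3.3, TMM scaling, default expression filter, robust; 6 residual degrees of freedom, common BCV 0.205). The SE is the log2 fold change over the square root of F. The procedure was tested on simulated data. Of the 34745 genes 16494 were tested, two-sided, with Benjamini-Hochberg adjustment. The genes and lists were chosen with earlier results of these data known.

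Values per library are given for the 10 genes with the highest mean FPKM and for up to 6 called genes per direction and comparison with a mean of at least 10 counts, and of each list up to 3 called genes with the largest changes and at least 1 FPKM, plus Slbp; Hist1h1e, Hist1h2be and the remaining H4 genes were added after their values were seen. Of 71 histone genes 48 had the same locus in GENCODE M21. Alternatives were DESeq2 1.42.0, limma 3.58.1 on log2 FPKM with pseudocounts of 1 and 0.1, median-of-ratios scaling, no filter, a filter of 10 counts in 3 libraries, a fit of only 2 groups, the replicate block and each library left out. Samples with the same replicate number did not deviate together, so the numbers were not used as pairs.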

Additional observations from a re-analysis of the deposited data

How the results depend on the processing

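Of the fitted log2 changes of the 12 genes with values per library, 556 alternative values kept direction and side of the threshold, 18 passed newly, 22 no longer passed and 15, none of them called, turned sign. At day 3 against day 0 the fit of only 2 groups called 4 higher and 4 lower, and leaving out 1 library gave 1 to 4 higher and 1 to 6 lower, the 4 and 6 without day 21 replicate 2. At day 21 against day 0 the fit of only 2 groups, in which 14 histone genes were tested, called 0 higher, and leaving out 1 library gave 0 to 2 higher and 0 to 2 lower. At day 21 against day 3 limma called 1 higher with both pseudocounts, and leaving out 1 library gave 0 to 1 higher and 0 to 1 lower. Without a count filter 69 histone genes were tested, with 2 higher and 3 lower at day 3, and 2 higher and 0 lower at day 21 against day 0. The share of all genes called is given here only for the main fit. The counts of calls under the alternatives therefore cannot be set against a share of their own setting. Without Hist2h2aa1 and Hist2h3c1, an alternative chosen after seeing the data, the class sums were 25.4 CPM for H2A at day 3 and 10.7 and 7.87 for H3 at day 3 and day 21. Leaving out 1 library in turn, the log2 fold changes that turned sign ranged as follows. At day 3 against day 0 they ran from -0.80 to 0.30 for Hist1h4h and -0.019 to 0.51 for Hist1h2bh. At day 21 against day 0 they ran from -0.24 to 0.13 for Hist1h1c, -0.60 to 0.96 for Hist1h4h and -0.67 to 0.091 for Hist1h2bf. At day 21 against day 3 they ran from -0.046 to 0.47 for Hist1h2bc, -1.12 to 0.32 for Hist2h2aa1, -0.12 to 0.63 for Hist3h2ba and -0.11 to 0.98 for Hist1h4h. Limma on log2 FPKM turned Hist1h1c at day 21 against day 0 to 0.088 (pseudocount 1) and 0.090 (pseudocount 0.1). The replicate block gave the same counts of calls in each comparison (2 higher and 2 lower, 2 and 0, 0 and 0). Deviations of same-numbered libraries correlated at -0.15 to 0.11, and 1 library of 9 correlated best with its own number in both other groups. The cause of these changes was not tested. Depth limits the 54 histone genes that did not pass the filter, none with more than 14 counts in a library.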
